A study of Mus musculus with 7 samples.

Results

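Most of the genes described here encode proteins that recognise splice sites, build the spliceosome or regulate splicing. These are the serine and arginine rich SR proteins, the heterogeneous nuclear ribonucleoproteins (hnRNPs) and the proteins of the small nuclear ribonucleoproteins (snRNPs). The SF3A, SF3B and U2AF proteins and the polypyrimidine tract binding proteins Ptbp1 and Ptbp2 also belong here. The genes of the cold-inducible RNA-binding proteins Cirbp and Rbm3 were counted with them. All genes were chosen by symbol from a RefSeq gene table of GRCm38.p6, the assembly also called mm10: 59 protein-coding genes out of 21887 on the nuclear chromosomes. One of them, Hnrnpa1l2-ps2, carries a pseudogene name although the table lists it as protein-coding. The group was taken up because earlier results of the same data had placed Ptbp1 and Cirbp among the loci where β-catenin and Pygo2 peaks overlap. The counts below therefore describe these genes, and no test or p-value goes with them.

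Splicing removes introns from a transcript in steps. SR proteins mostly bind exons and help the spliceosome to find them, and many hnRNPs bind near splice sites and can block their use. U2AF marks the 3′ splice site, and the U2 snRNP, with SF3A and SF3B, then pairs with the branch point. The Sm proteins form a ring around most of the small nuclear RNAs of the snRNPs. Most of these genes are active in nearly all cells. β-catenin carries the Wnt signal into the nucleus, where Bcl9 links it to Pygo2, a protein whose PHD finger binds methylated histone tails.

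The peaks come from chromatin immunoprecipitation and sequencing (ChIP-seq) of wild-type branchial arches, the swellings below the embryonic head, from mouse embryos at 10.5 dpc (days post coitum), with tissue pooled for each library. Compared here are 2 groups of 1 library: b-cat-BA2, precipitated with an antibody to β-catenin, and Pygo2-BA2, with an antibody to Pygo2. IgG-BA1, made with pre-immune serum, was the control of both per the file headers, and Input-BA1, Input-BA2, b-cat-BA1 and Pygo2-BA1 complete the 7 libraries. What BA1 and BA2 stand for is not in the labels. The β-catenin list held 1079 peaks from 13672937 sequenced tags, and the Pygo2 list 7150 peaks from 15009636 tags. A β-catenin peak rested on 14.6 tags and a Pygo2 peak on 15.5 tags on average, against calling minimums of 11 and 10 tags. As a check of the tissue, 14 of 20 branchial arch mesenchyme genes (70.0%) and 2 of 14 hepatocyte genes (14.3%) had Pygo2 bound in a peak no further than 50 kb from an end. The counts were 3 of 6 endothelial, 2 of 6 blood, 3 of 6 neuronal and 3 of 6 epithelial genes, where the share of all protein-coding genes is 45.8%. Within 1 kb, 5 of 20 arch genes (25%) had one, against 16.5% of all genes. β-catenin peaks lay within 50 kb at 2 of 20 arch genes (10.0%) and 1 of 14 hepatocyte genes (7.14%), against 10.9% of all genes. They lay there at 1 of 6 epithelial genes and at no endothelial, blood or neuronal gene. No arch gene had one within 1 kb, so the β-catenin list gave no such check. A peak shows neither RNA nor the cell type it came from, and with 1 peak list per protein, each from 1 library, no value has a replicate error.

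The promoters shown first are those where a peak sat on or just before a start site. Of the members with a shared peak within 1 kb, Ptbp1 is shown, and at Hnrnpa1 the peaks lay past the start. The other members were chosen after their peak positions were seen, to show the larger gene classes, together with Srsf10, which had peaks of both proteins. Each line gives the 250 bases before an annotated start, 5′ to 3′ on the gene's strand, from RefSeq on GRCm38.p6. Capitals mark the bases inside the Pygo2 peak, and at Ptbp1 those inside the peaks of both proteins. The windows are Ptbp1 chr10:79854182-79854431 (plus strand), Srsf10 chr4:135855821-135856070 (plus strand), Srsf3 chr17:29032410-29032659 (plus strand), Srsf7 chr17:80207306-80207555 (minus strand), Hnrnpr chr4:136310692-136310941 (plus strand), Hnrnpm chr17:33685459-33685708 (minus strand), Sf3a2 chr10:80798485-80798734 (plus strand), Snrpd3 chr10:75517792-75518041 (plus strand).
Ptbp1: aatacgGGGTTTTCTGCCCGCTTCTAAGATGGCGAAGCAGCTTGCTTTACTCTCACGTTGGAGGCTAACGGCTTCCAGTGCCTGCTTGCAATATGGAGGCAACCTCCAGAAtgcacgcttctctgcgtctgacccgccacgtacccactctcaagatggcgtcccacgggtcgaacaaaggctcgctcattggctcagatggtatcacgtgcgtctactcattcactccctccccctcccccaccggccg
Srsf10: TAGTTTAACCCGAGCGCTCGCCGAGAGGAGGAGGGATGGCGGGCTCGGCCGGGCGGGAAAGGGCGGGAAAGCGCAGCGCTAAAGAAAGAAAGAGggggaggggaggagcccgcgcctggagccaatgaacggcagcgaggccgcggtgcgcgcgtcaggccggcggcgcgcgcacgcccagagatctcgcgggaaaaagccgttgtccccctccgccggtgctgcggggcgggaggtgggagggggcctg
Srsf3: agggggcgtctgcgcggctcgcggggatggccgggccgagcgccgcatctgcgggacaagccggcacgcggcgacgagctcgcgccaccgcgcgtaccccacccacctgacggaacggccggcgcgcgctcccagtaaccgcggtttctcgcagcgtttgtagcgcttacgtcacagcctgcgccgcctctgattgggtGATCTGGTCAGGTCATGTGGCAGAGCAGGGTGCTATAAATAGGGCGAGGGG
Srsf7: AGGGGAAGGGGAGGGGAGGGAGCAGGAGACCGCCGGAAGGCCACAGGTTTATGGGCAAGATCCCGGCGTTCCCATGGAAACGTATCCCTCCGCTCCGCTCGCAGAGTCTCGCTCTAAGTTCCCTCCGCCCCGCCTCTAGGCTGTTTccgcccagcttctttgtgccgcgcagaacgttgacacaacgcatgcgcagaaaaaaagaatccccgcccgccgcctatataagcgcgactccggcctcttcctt
Hnrnpr: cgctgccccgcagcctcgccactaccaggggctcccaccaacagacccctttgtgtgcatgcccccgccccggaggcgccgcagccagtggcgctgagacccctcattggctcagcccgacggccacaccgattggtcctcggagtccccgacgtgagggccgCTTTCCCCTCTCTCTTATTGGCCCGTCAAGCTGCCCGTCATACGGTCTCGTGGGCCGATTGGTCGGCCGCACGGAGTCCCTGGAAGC
Hnrnpm: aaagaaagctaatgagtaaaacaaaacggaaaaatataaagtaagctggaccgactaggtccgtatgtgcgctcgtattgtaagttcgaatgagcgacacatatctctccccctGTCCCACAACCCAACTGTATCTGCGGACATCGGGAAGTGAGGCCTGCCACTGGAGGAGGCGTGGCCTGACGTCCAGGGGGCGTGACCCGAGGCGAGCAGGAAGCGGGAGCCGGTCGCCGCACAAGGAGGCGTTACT
Sf3a2: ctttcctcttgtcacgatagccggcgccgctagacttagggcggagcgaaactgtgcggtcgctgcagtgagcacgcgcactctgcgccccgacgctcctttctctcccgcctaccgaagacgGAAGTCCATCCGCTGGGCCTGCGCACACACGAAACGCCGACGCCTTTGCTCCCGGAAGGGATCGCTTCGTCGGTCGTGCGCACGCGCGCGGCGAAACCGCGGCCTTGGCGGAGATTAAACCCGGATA
Snrpd3: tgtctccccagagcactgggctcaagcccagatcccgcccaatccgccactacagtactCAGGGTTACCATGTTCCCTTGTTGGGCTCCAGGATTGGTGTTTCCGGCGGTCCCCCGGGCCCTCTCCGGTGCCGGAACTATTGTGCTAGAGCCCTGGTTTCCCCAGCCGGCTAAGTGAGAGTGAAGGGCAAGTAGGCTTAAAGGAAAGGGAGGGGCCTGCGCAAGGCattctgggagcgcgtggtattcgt

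At Ptbp1, 105 bases of this window lay in both peaks, in the part of the window far from the start. At Srsf10 the Pygo2 peak covered 94 bases at the far end of the window, and the β-catenin peak lay outside it. The windows of Sf3a2 and Srsf7 hold the ETS motif (CCGGAAG) inside the capitals, that of Hnrnpm holds the CRE core (TGACGT), and those of Srsf7 and Srsf10 hold the SP/KLF motif (GGGCGG) on one strand or the other. The Hnrnpr and Snrpd3 windows hold the NFY motif (CCAAT) inside and outside the capitals, inside them on the opposite strand. None of these 8 windows holds CTTTGAT on either strand, the only form searched of the TCF/LEF motif that the partners of β-catenin bind. Other forms of that motif were not searched. In windows of 300 bases, 3.28% of all promoters hold CTTTGAT, so 8 windows are too few to read its absence. A match describes letters only and does not show that a factor binds.

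Pygo2 peaks lay at the ends of many splicing factor genes, and β-catenin peaks at few. Within 1 kb of a gene end, β-catenin had a peak at 6 of the 59 genes (10.2%), against 2.01% of all protein-coding genes. For Pygo2 the count was 25 of 59 (42.4%), against 16.5%. Within 50 kb the counts were 13 for β-catenin (22.0%, against 10.9% of all genes) and 43 for Pygo2 (72.9%, against 45.8%). These shares were thus above those of the whole gene table for both proteins and both windows, in lists from 1 library each. Ptbp1 is among the 6, and Ptbp1 and Cirbp are both among the 25, the 13 and the 43. The group was taken up because of the peaks at these genes, so that choice itself raised these shares. The median number of other protein-coding genes within 50 kb was 3.0 for the members and 3.0 for all other protein-coding genes. The median gene length was 10.4 kb for the members and 17.2 kb for the other genes.

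**Figure D1:**
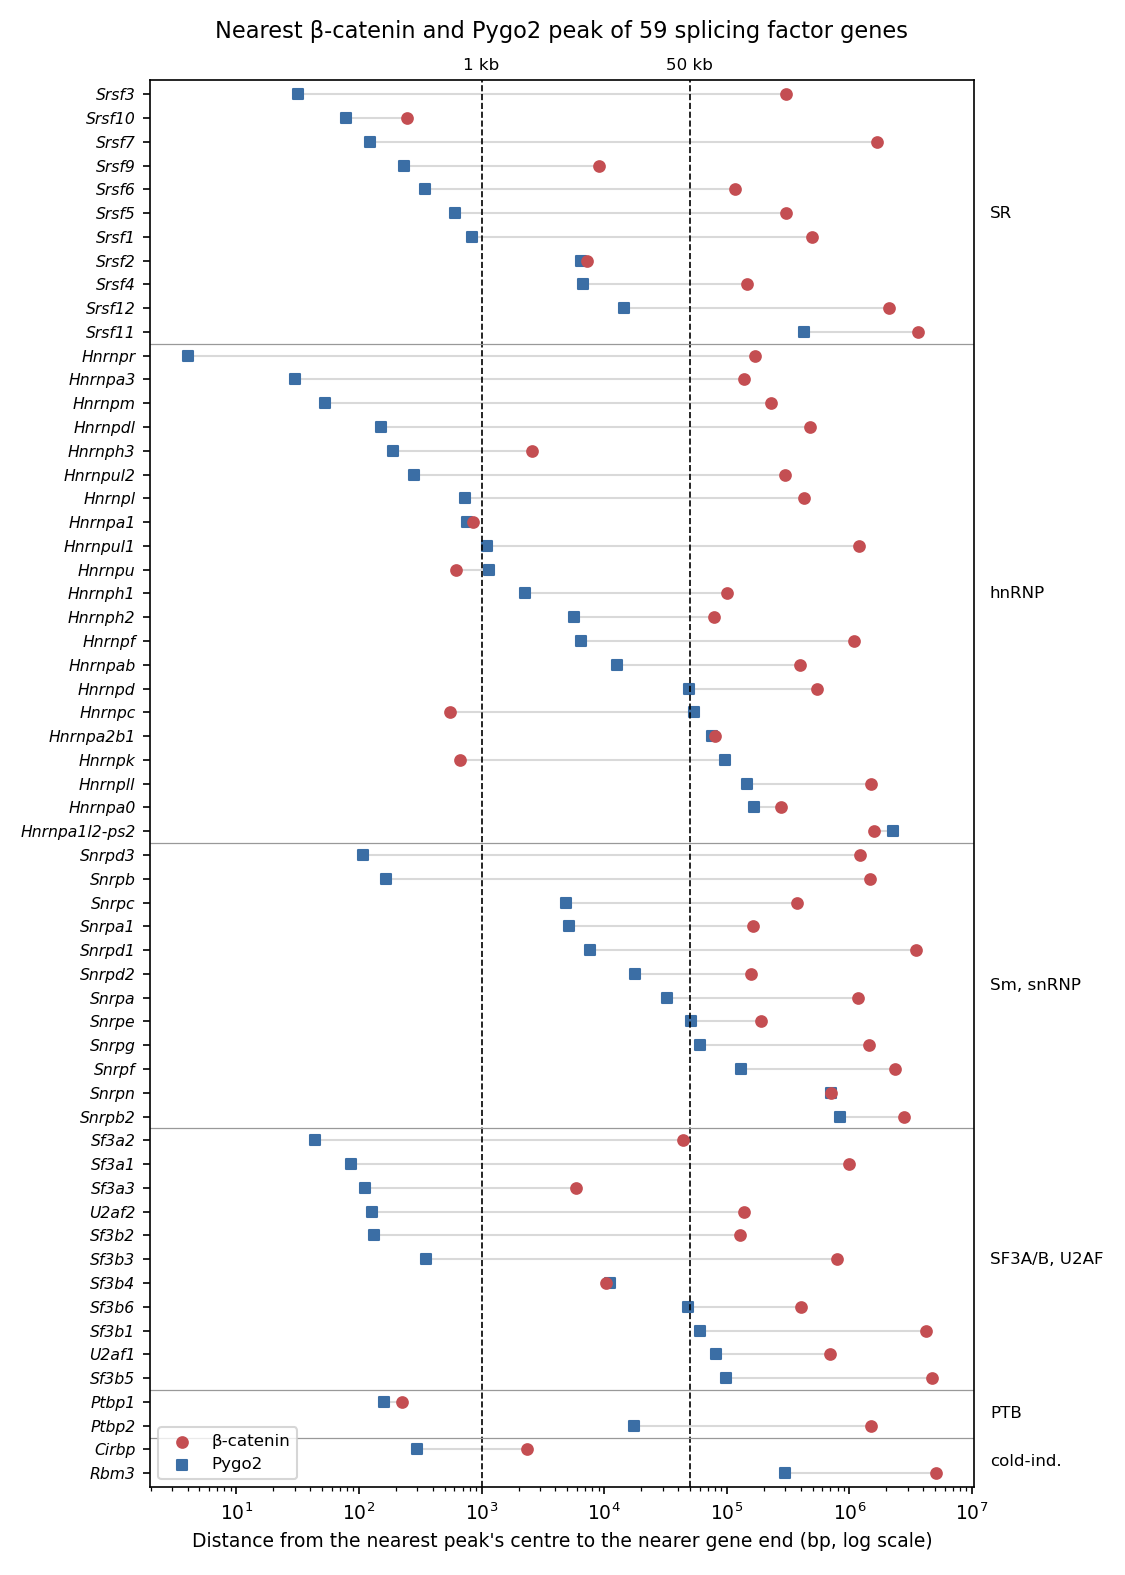
Distance in bp (log scale) from the centre of the nearest β-catenin peak (red circles) and Pygo2 peak (blue squares) to the nearer end of each of the 59 genes, grouped by role and sorted by the Pygo2 distance; dashed lines mark 1 kb and 50 kb. Pygo2 squares lie left of the 1 kb line for 25 genes and β-catenin circles for 6.

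The gene table extends to the outermost transcript model, so distances were also taken to the starts of RefSeq transcripts, of which 51 of the members have at least 1. The median distance of the Pygo2 peaks within 1 kb was 152 bp from gene ends (25 members) and 147 bp from annotated starts (26 members), so the 2 measures were about equal, while single genes moved in both directions. Within 1 kb of an annotated start, β-catenin had a peak at 7 of the 51 genes (13.7%), against 2.16% of the 17492 protein-coding genes with such a start. Pygo2 had one at 26 (51.0%), against 17.3%. Ptbp1 and Cirbp, through which the group was chosen, are both among the 7 and among the 26. Of these 26 Pygo2 peaks, 9 had their centre within 100 bp of the start, 18 within 250 bp and 24 within 500 bp. Over all genes with a Pygo2 peak within 1 kb of a start, the median distance was 137 bp, near the 147 bp of the members. The nearest Pygo2 peak was upstream of the start at 19 genes and downstream at 7, with a median position 118 bp upstream. Over all 3032 genes with such a peak, it was upstream at 1956 and downstream at 1076, with a median of 69.0 bp upstream. For β-catenin, 5 of 7 were upstream, none was within 100 bp of a start and 2 were within 250 bp. The median distance was 454 bp for these 7 members and 223 bp over all 377 genes with such a β-catenin peak. At the 3′ end, β-catenin had a peak within 1 kb at none of the 51 genes, against 0.326% of all genes with a start, and Pygo2 at 2 (3.92%, against 1.88%). These were Cirbp and Sf3b2, and their peaks lay 298 bp and 603 bp past the 3′ end. Both peaks were nearer to another gene, 140 bp from an end of Fam174c and 199 bp from an end of Pacs1.

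**Figure D2:**
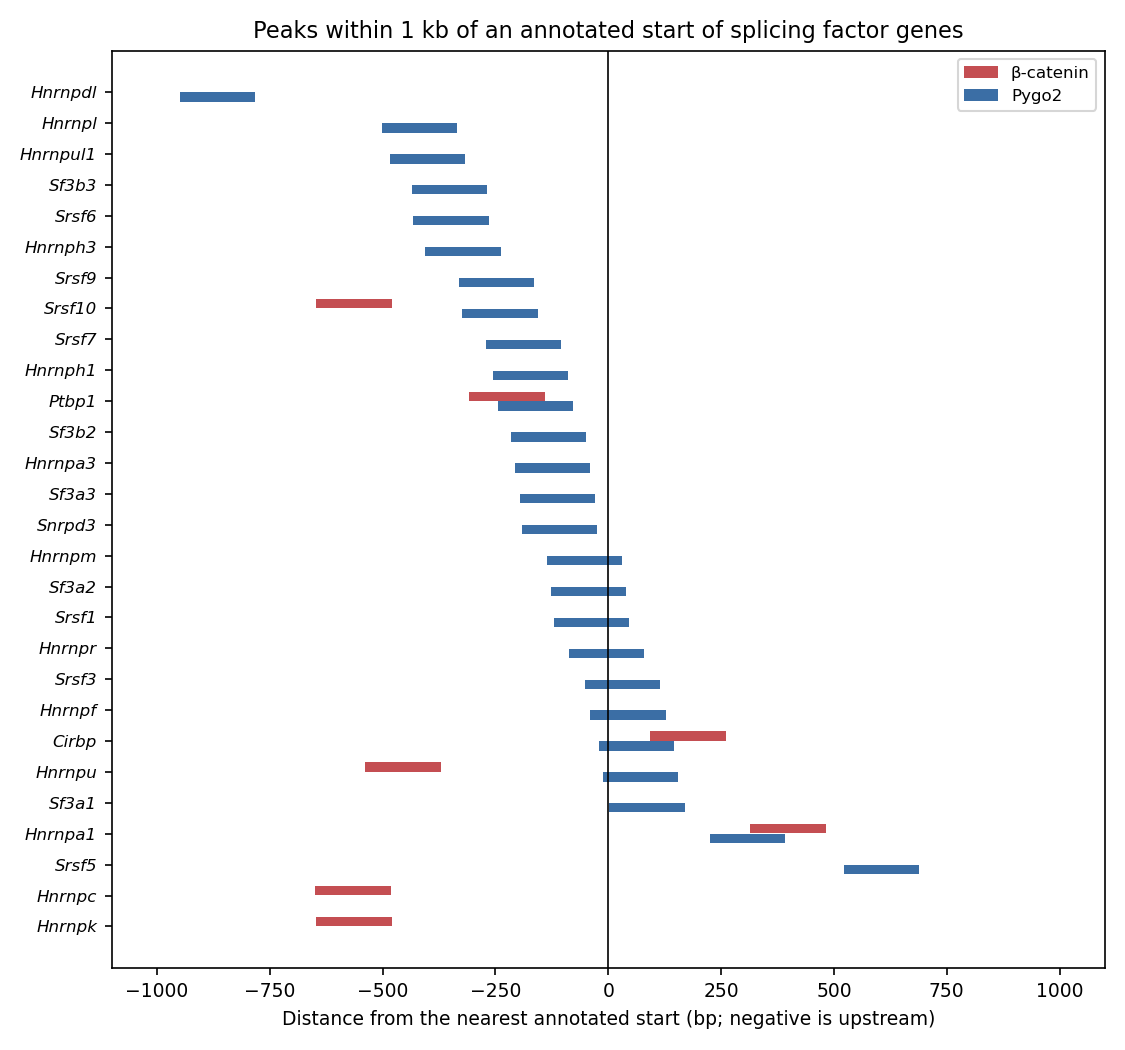
Nearest β-catenin (red) and Pygo2 (blue) peak within 1 kb of an annotated start, drawn at its true width for each splicing factor gene, with the distance from the start in bp on the x axis (negative is upstream). The Pygo2 bars of 9 genes have their centre within 100 bp of the start, and no β-catenin bar does.

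Peaks of the 2 proteins that overlap by 1 bp or more are called shared. They lay within 1 kb of an end of 2 members (3.39%, against 0.786% of all genes) and within 50 kb of 6 (10.2%, against 4.00%). Within 1 kb of an annotated start there were 3 (5.88%, against 0.795%). Ptbp1 is among the 2 members, and Ptbp1 and Cirbp are both among the 3 and among the 6. The group was taken up because of the overlapping peaks at Ptbp1 and Cirbp, so that choice itself raised these shares. The 2 lists have their IgG control in common, and its part in the shared positions was not tested. The genes within 50 kb were Ptbp1, Hnrnpa1, Cirbp, Sf3a3, Sf3b4 and Sf3a2. At the first 3 of these, the shared peak was nearest to the member itself.

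Ptbp1 encodes a repressor of splicing that binds pyrimidine-rich RNA and is known for holding back neuronal exons outside neurons. The gene spans chromosome 10, 79854432 to 79864435. Its β-catenin peak spanned 79854124 to 79854292 and its Pygo2 peak 79854188 to 79854354, with centres 224 bp and 161 bp upstream of the start. The peaks overlapped by 105 bp. The β-catenin peak was number 75 of 1079 in its list and the Pygo2 peak number 51 of 7150, so both stood near the top. The lists do not state their order, and list positions are given as a description only. A further 3 Pygo2 peaks lay within 50 kb of Ptbp1, at 10.1 kb, 13.1 kb and 44.4 kb from an end. Ptbp2, its homologue known from neurons (chromosome 3, 119718741 to 119784647), had no β-catenin peak nearer than 1508 kb. Its only Pygo2 peak in the window lay inside the gene, 17.7 kb from an end and at 94.6% of the list.

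Cirbp, whose RNA-binding protein rises on mild cooling, had more Pygo2 peaks around it than any other member. The gene spans chromosome 10, 80165990 to 80172786. There were 2 β-catenin peaks and 12 Pygo2 peaks within 50 kb, and the next highest Pygo2 count among the members was 7, at Srsf9. The shared peaks of Cirbp lay inside the gene table's limits, 2357 bp (β-catenin, 80168263 to 80168431) and 2244 bp (Pygo2, 80168151 to 80168317) from its end. Measured from a RefSeq transcript start at 80168171, the same peaks were centred 176 bp and 63 bp downstream, so by that annotation they lie at a start site. Another Pygo2 peak was centred at -229 bp from a second annotated start, upstream of it. The shared peaks were number 47 in the β-catenin list and number 73 in the Pygo2 list. Of the 12 Pygo2 peaks, 3 had Cirbp as their nearest gene, and the others were nearer to Midn, Cbarp, Fam174c, Efna2 or Pwwp3a. The second β-catenin peak was 6.49 kb past the end of Cirbp and 202 bp from an end of Efna2. Rbm3, the other cold-inducible gene (chromosome X, 8138975 to 8145880), had no peak of either protein within 50 kb, and the nearest were at 5085 kb for β-catenin and 297 kb for Pygo2.

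Hnrnpa1 encodes an abundant hnRNP that represses exons and counteracts SR proteins. It spans chromosome 15, 103239943 to 103246698. Its shared peaks lay 399 bp (β-catenin, 103240712 to 103240880) and 309 bp (Pygo2, 103240623 to 103240789) downstream of its annotated start, and overlapped by 78 bp. They were number 235 in the β-catenin list and number 488 in the Pygo2 list. At the other 3 genes the shared position was at a neighbour. The Sf3a3 position was 5.94 kb from Sf3a3 and 312 bp from Fhl3, and its peaks overlapped by 9 bp. That of Sf3b4 was 43.5 kb away and 11 bp from an end of the histone gene H2bc21. That of Sf3a2 was 43.7 kb away and 101 bp from an end of Dot1l, a histone methyltransferase gene.

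**Figure D3:**
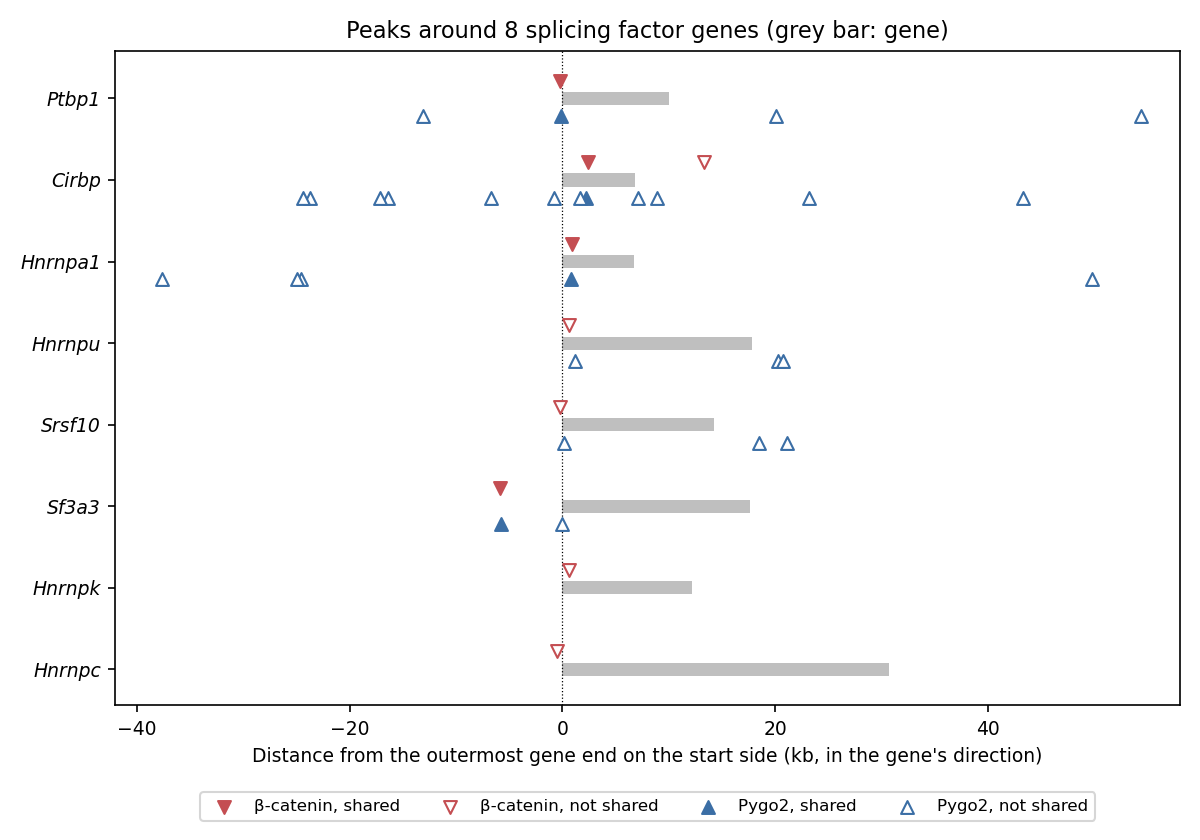
Peaks around 8 splicing factor genes, with the distance in kb from the outermost gene end on the start side on the x axis, in the gene's direction; grey bars are the genes, red triangles β-catenin and blue triangles Pygo2 peaks, filled where shared. Filled triangles stand at the start side of Ptbp1, Cirbp and Hnrnpa1, and Cirbp has 12 Pygo2 triangles.

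At 4 further members the β-catenin peak near the start did not overlap a Pygo2 peak. Hnrnpu encodes a nuclear matrix protein also called scaffold attachment factor A. It had its β-catenin peak 454 bp upstream of the annotated start (chromosome 1, 178338185 to 178338353) and a Pygo2 peak 71 bp downstream of it. Srsf10, an SR protein that acts as a repressor when dephosphorylated, had β-catenin 564 bp and Pygo2 240 bp upstream of its annotated start. Hnrnpk, whose protein binds poly-cytosine tracts, had a β-catenin peak 563 bp upstream of its start (chromosome 13, 58402596 to 58402764), and its nearest Pygo2 peak was 96.9 kb away. Hnrnpc, whose protein binds uridine-rich tracts, had a β-catenin peak 566 bp upstream (chromosome 14, 52104503 to 52104671), and its nearest Pygo2 peak was 53.6 kb away. The Hnrnpk and Hnrnpc peaks were nearer to another gene, 432 bp from Rmi1 and 346 bp from Rpgrip1. These 4 β-catenin peaks stood at 56.9% to 79.2% of their list, whereas those of Ptbp1, Cirbp and Hnrnpa1 stood at 4.36% to 21.8%.

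The remaining β-catenin peaks in the 50 kb window lay away from the members. Hnrnph3 had one 2.59 kb from its end, Srsf2 one at 7.20 kb, Srsf9 one at 9.13 kb, and Sf3b4 another at 10.3 kb. The Srsf9 peak was nearest to Srsf9 itself, and those of Hnrnph3, Srsf2 and Sf3b4 were nearest to Pbld2, Mettl23 and Mtmr11. Of the 6 members with a β-catenin peak within 1 kb, Hnrnpa1 was the last inside at 853 bp, and Cirbp was the first outside at 2357 bp. At 50 kb, Sf3a2 was the last inside and Hnrnph2 the first outside, at 79.3 kb.

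SR protein genes had Pygo2 peaks within 1 kb of an end in 7 of 11 cases (63.6%, against 16.5% of all genes) and within 50 kb in 10 of 11 (90.9%, against 45.8%). The peaks nearest to annotated starts were those of Srsf3, centred 32 bp downstream, and Srsf1, 37 bp upstream. Srsf1, the founding SR protein also known as ASF/SF2, has a gene table end 837 bp from that peak. Srsf7 had its peak 188 bp upstream, Srsf9 248 bp upstream, Srsf6 348 bp upstream and Srsf5 606 bp downstream. The Srsf7 peak was also 11 bp from an end of Gemin6, a gene of the complex that assembles Sm rings. Srsf2, Srsf4 and Srsf12 had no peak nearer than 6.41 kb, 6.72 kb and 14.4 kb. Srsf11 stood apart, with its nearest Pygo2 peak at 428 kb.

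Of the 21 hnRNP genes, β-catenin peaks were within 1 kb of an end at 4 (19.0%, against 2.01% of all genes) and within 50 kb at 5 (23.8%, against 10.9%). Pygo2 peaks were within 1 kb at 8 (38.1%, against 16.5%) and within 50 kb at 15 (71.4%, against 45.8%). Hnrnpr had the closest Pygo2 peak of all members, centred 4 bp from its end (chromosome 4, 136310942 to 136345981). The peaks of Hnrnpm, 53 bp upstream of the start, and Hnrnpa3, 124 bp upstream, also lay at start sites. Several hnRNP genes gained a peak only when annotated starts were used. Hnrnpf, whose protein binds guanine-rich RNA like those of Hnrnph1 and Hnrnph2, had its peak 6.49 kb from a gene end but 44 bp downstream of an annotated start. Those of Hnrnph1, at 172 bp and 176 bp upstream of annotated starts, were 2.81 kb and 2.25 kb from a gene end. The Hnrnpul1 peak was 1109 bp from the end and 400 bp upstream of the start. Hnrnpl, whose protein binds cytosine and adenine repeats, had 3 Pygo2 peaks inside the gene, the nearest 418 bp upstream of its annotated start. Hnrnpdl had its peak 152 bp from the gene end, 866 bp upstream of its start. Hnrnph3 had one 322 bp upstream, which was 118 bp from Pbld2. Hnrnpul2 had its nearest Pygo2 peak 283 bp from an end. Hnrnpab, Hnrnph2 and Hnrnpd had their nearest Pygo2 peak at 12.7 kb, 5.67 kb and 49.6 kb. Hnrnpa0, Hnrnpa2b1, Hnrnpll and Hnrnpa1l2-ps2 had no peak of either protein within 50 kb.

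The genes for Sm and other snRNP proteins had Pygo2 peaks at about the share of all genes. Of 12, none had β-catenin within 50 kb (10.9% of all genes), and Pygo2 was within 1 kb at 2 (16.7%, against 16.5% of all genes) and within 50 kb at 7 (58.3%, against 45.8%). The 2 were Snrpd3 and Snrpb, which encode Sm ring proteins, with peaks centred 108 bp and 167 bp from an end. The Snrpd3 peak was nearer to Gucd1, at 38 bp. The other Sm genes Snrpd1 and Snrpd2 had their nearest Pygo2 peak at 7.69 kb and 17.8 kb, and Snrpe, Snrpf and Snrpg at 51.1 kb, 130 kb and 59.9 kb. Among genes of snRNP-specific proteins, Snrpc and Snrpa of the U1 snRNP had Pygo2 at 4.84 kb and 32.3 kb. Snrpa1 and Snrpb2 of the U2 snRNP had it at 5.15 kb and 843 kb. Snrpn, an imprinted Sm gene used in neurons, had both proteins' nearest peaks at 701 kb. With 12 genes, the difference of this class from the other classes was not tested.

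Of the 11 genes for SF3A, SF3B and U2AF proteins, Pygo2 was within 1 kb at 6 (54.5%, against 16.5% of all genes). β-catenin was at none, where the share of all genes is 2.01%, and 11 genes are too few to tell these apart. All 3 SF3A genes were among them, with Sf3a2 centred 44 bp upstream, Sf3a1 86 bp downstream and Sf3a3 112 bp upstream of the start. Sf3b2 had its peak 133 bp upstream, Sf3b3 352 bp upstream, and U2af2, the large U2AF subunit, had peaks 127 bp and 854 bp from an end. Sf3b6 had one at 48.6 kb and Sf3b4 its nearest at 11.2 kb. Sf3b1, which encodes the branch point protein of this complex, had its nearest Pygo2 peak at 60.5 kb, U2af1 at 82.2 kb and Sf3b5 at 99.2 kb. Genes of one complex thus differed, with Pygo2 at the ends of some subunits and beyond 50 kb for others. In all, 14 of the 59 members (23.7%, against 52.4% of all other protein-coding genes) had no peak of either protein within 50 kb: Sf3b1, U2af1, Sf3b5, Rbm3, Srsf11, Snrpe, Snrpf, Snrpg, Snrpn, Snrpb2 and the 4 hnRNP genes named above. At the 1 kb limit for Pygo2, Srsf1 was the last inside at 837 bp and Hnrnpul1 the first outside at 1109 bp. At 50 kb these were Hnrnpd at 49.6 kb and Snrpe at 51.1 kb.

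Pygo2 peaks at splicing factor genes stood early in the Pygo2 list. The 29 distinct Pygo2 peaks within 1 kb of a member had a median position at 12.0% of the list, in a range from 0.713% at Ptbp1 to 86.6% at Sf3b3. All 3269 Pygo2 peaks within 1 kb of any protein-coding gene end had a median of 35.2%. The 6 β-catenin peaks within 1 kb of a member had a median of 59.6% of their list, from 6.95% to 79.2%, and all 373 such β-catenin peaks a median of 48.1%. The lists differ in length, so these positions are compared only within a list.

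Other genes of splicing had Pygo2 peaks within 1 kb at shares from 25% to 40.0%, against 16.5% of all genes. Of 45 core spliceosome genes outside the symbols used here, 3 had β-catenin within 1 kb (6.67%, against 2.01% of all genes). Pygo2 was there at 17 (37.8%). For 16 genes of SR protein kinases and SR-related proteins the counts were none and 4 (25%), and for 5 exon junction complex genes none and 2 (40.0%). For 39 tissue-specific and other splicing regulators they were 1 (2.56%, near the 2.01% of all genes) and 10 (25.6%). Among 3 other groups of broadly active genes, the Pygo2 shares lay on either side of that of the splicing factor genes. For 91 ribosomal protein genes the counts were 7 with β-catenin (7.69%) and 49 with Pygo2 (53.8%). For 40 proteasome genes they were none and 13 (32.5%), and for 71 translation factor genes 4 (5.63%) and 28 (39.4%). The Pygo2 share of the splicing factor genes, 42.4%, lies inside the range of these 3 groups, and their β-catenin share, 10.2%, lies above those of the 3 groups. Within 50 kb the β-catenin share was 22.0% for both the splicing factor and the ribosomal protein genes, and 22.2% for the core spliceosome genes. It was 12.5% for the SR protein kinase and SR-related genes, 12.8% for the tissue-specific and other splicing regulators and 20.0% (1 of 5) for the exon junction complex genes. For translation factor and proteasome genes it was 11.3% and 5.00%, against 10.9% of all genes. The count of 6 behind the 10.2% falls to 2 with a 0.5 kb window or the top 50% of the list. It also includes Ptbp1, whose peaks were among the reasons for choosing the group. Shared peaks lay within 1 kb at 3.39% of the splicing factor genes, 4.40% of the ribosomal protein genes and 2.22% of the core spliceosome genes. Within 50 kb these shares were 10.2%, 9.89% and 8.89%. They were lower for translation factor genes (1.41% in both windows) and proteasome genes (none and 2.50%). For the SR protein kinase and SR-related genes they were none and 6.25%, and for the exon junction complex genes none and 20.0% (1 of 5). None of the 39 tissue-specific and other splicing regulators had a shared peak in either window. Over all genes the shares were 0.786% and 4.00%. Pygo2 lay within 50 kb at 81.3% of ribosomal protein, 69.0% of translation factor and 65.0% of proteasome genes. The 72.9% of the splicing factor genes lies inside this range, against 45.8% of all genes. It was 66.7% for the core spliceosome genes and 71.8% for the other splicing regulators. For the SR protein kinase group and the exon junction complex it was 62.5% and 60.0%. No difference between the groups was tested, and nothing here is called particular to splicing genes.

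**Figure D4:**
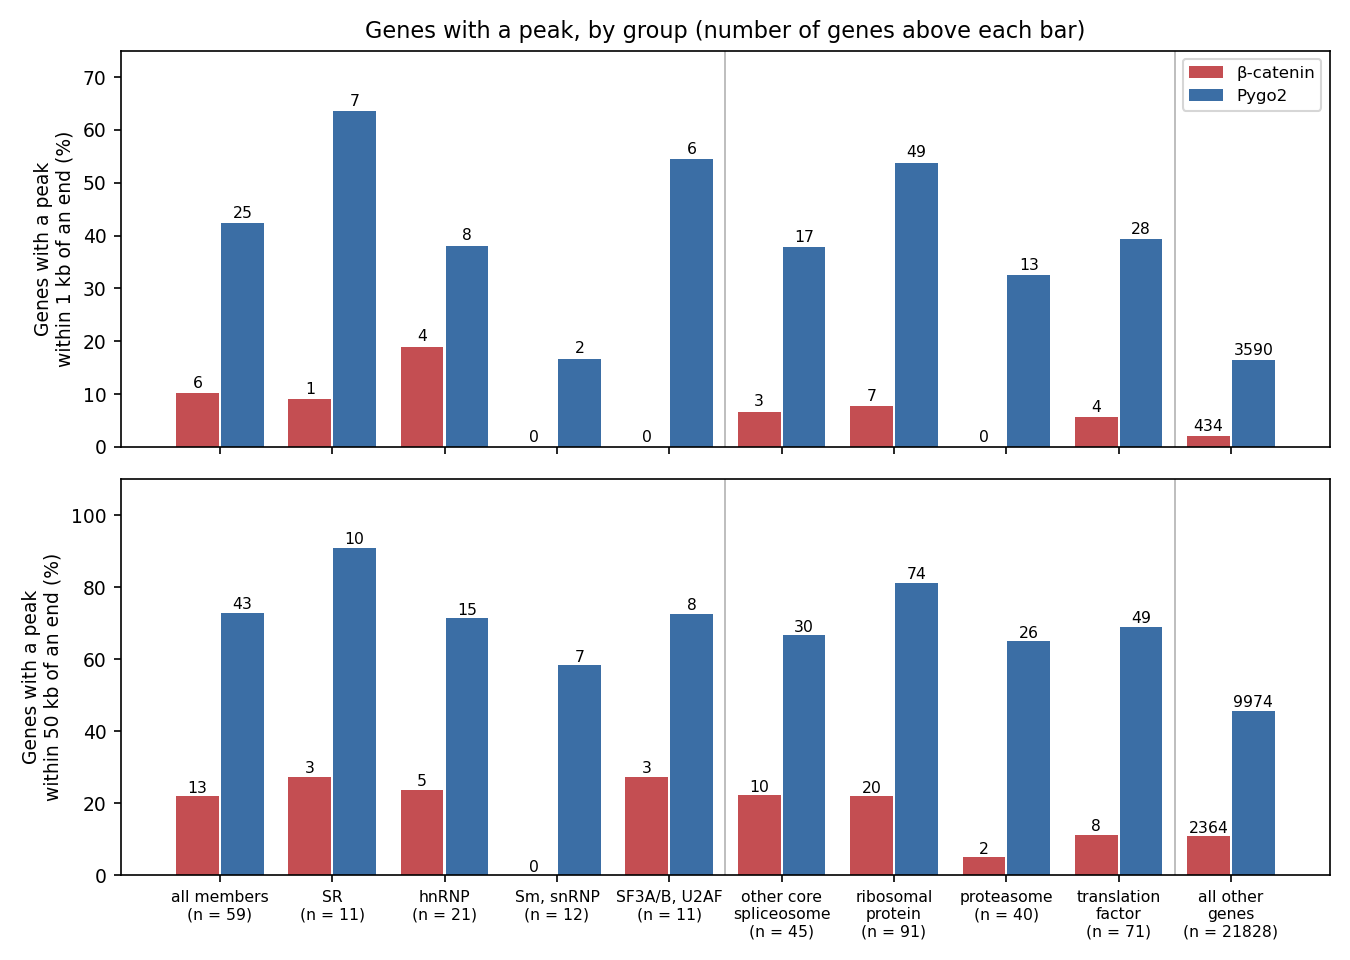
Percent of genes with a β-catenin (red) or Pygo2 (blue) peak within 1 kb (top) and 50 kb (bottom) of a gene end, for the splicing factor genes and their larger classes, other groups, and all other protein-coding genes; the number of genes is above each bar. Pygo2 bars of the splicing factor genes reach 42.4% and 72.9%, against 16.4% and 45.7% for all other genes.

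The promoters of the splicing factor genes were rich in CpG, the dinucleotide that is frequent in the promoters of broadly active genes. Over 300 bases around the outermost annotated start, the median was 25 CpG for the 51 members and 13.0 for all 17492 genes with a start. Median GC content was 60.3% for the members and 56.3% for all genes. Among the members, promoters with a Pygo2 peak within 1 kb of a gene end had a median of 27.5 CpG (22 genes) and those without 24.0 (29 genes). Hnrnpf, Hnrnph1, Hnrnpu and Hnrnpul1 are among the 29, although they had Pygo2 within 1 kb of an annotated start. Over all genes the medians were 22.0 with and 10.0 without a Pygo2 peak. The CpG content thus moved with the Pygo2 peaks over all genes, and its part in the count of the members was not tested. Snrpn, with no peak nearby, had the lowest CpG count of the members, 2, whereas Hnrnpa0, also with none, had the highest, 52.

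Short motifs were read on both strands of the same 300 bases, and the E-box (CACGTG) reads the same on both. The SP/KLF motif was present at 36 of 51 members (70.6%, against 46.3% of all promoters), the NFY motif at 26 (51.0%, against 39.2%), the ETS motif at 16 (31.4%, against 11.9%) and the CRE core at 12 (23.5%, against 8.71%). The E-box was at 6 (11.8%, against 7.91%), the NRF1 core (GCATGCG) at 3 (5.88%, against 4.50%) and the AP-1 motif (TGANTCA) at 2 (3.92%, against 7.03%). The TCF/LEF motif, searched only as CTTTGAT, was at 1 member, Snrpa (1.96%, against 3.28%). Where Pygo2 lay within 1 kb, the ETS motif was present at 7 of 22 members (31.8%), and elsewhere at 9 of 29 (31.0%). Over all genes the shares were 21.0% with and 10.1% without a Pygo2 peak within 1 kb of a gene end.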

How the data were processed

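The deposited ChIP-seq peaks of b-cat-BA2 and Pygo2-BA2 were analysed. Per the file headers, the authors called each list from 1 library with HOMER findPeaks in factor style against the IgG BA1 library, with a false discovery rate of 0.001, at least 2-fold more tags than the control and than the local 10 kb, and a Poisson threshold of 1e-04 over the control. Bowtie, Bowtie2, HOMER and mm10 appear, with no versions, per the submitters' processing notes. The deposited score is 1 for every peak and carries no strength. Peaks are 169 bp (β-catenin) or 167 bp (Pygo2) wide, so positions are known to about this width, and each rests on few tags.

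Distances run from the peak centre to the nearer gene end in a RefSeq table (GRCm38.p6), or to transcript starts of the RefSeq promoter table; mitochondrial genes were left out. Groups were counted by symbol; S6 kinase genes were left out of the ribosomal group, and 1 marker symbol, Tf, found no protein-coding gene. The order of the lists is not given in the sources used here; the number in a peak's name and its list position were correlated within each of 20 chromosomes (Spearman's rho from 0.756 to 0.990 over both lists, as a description). Python 3.11.15, NumPy 2.4.6, pandas 2.3.3, SciPy 1.17.1 and Matplotlib 3.10.9 were used, and distances and overlaps were tested on simulated data. The members, gene lists and motifs were chosen with earlier results of these data known. Named were members with a β-catenin or shared peak within 50 kb, the 15 with the nearest Pygo2 peak, the 5 with the most Pygo2 peaks, and those with none; others were added to account for every member. Windows, the part of the peak measured, nearest genes, list length, gene starts, gene bodies and the overlap were varied.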

Additional observations from a re-analysis of the deposited data

How the results depend on the processing

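Of 46 alternative counts, 37 were within 1.5 times the main count. A window of 0.5 kb in place of 1 kb left 2 members with a β-catenin peak in place of 6 (1.50% of all genes). It left 1 with a shared peak in place of 2 (0.667% of all genes). The top 50% of each list left 2 with a β-catenin peak within 1 kb (1.09% of all genes) and 7 in place of 13 within 50 kb (6.30%). Counting each peak only for its nearest gene left, within 50 kb, 6 members with β-catenin (3.68% of all genes). It left 28 in place of 43 with Pygo2 (21.9%) and 3 in place of 6 with a shared peak (1.06%). An overlap of at least 50% of the shorter peak left 1 shared member within 1 kb (0.539% of all genes) and 2 within 50 kb (3.00%). The Pygo2 count within 1 kb ranged from 21 to 30 over its alternatives. The 21 came with the 0.5 kb window (14.0% of all genes) and the 30 with peaks inside genes counted (22.9%). The shared counts at 1 kb rest on 1 to 3 genes. Under the 0.5 kb window and the 50% overlap the 1 gene is Ptbp1, whose shared peak was among the reasons for choosing the group, so these counts say nothing about stability. No paired analysis was possible because 1 peak list per protein was used, each called from 1 library, and for the same reason no replicate could be left out. Peaks under 11 tags (β-catenin) or 10 tags (Pygo2) could not be called at this depth, and a peak also had to pass the filters against the control and the local region. Which of these left a gene without a peak was not tested.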

Other observations

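Within 50 kb of the splicing factor genes lay 15 distinct β-catenin peaks and 99 distinct Pygo2 peaks. Of these, 6 β-catenin and 37 Pygo2 peaks had a splicing factor gene as their nearest protein-coding gene, so most peaks in the wide window stood at neighbours. Ptbp1, Cirbp and Sf3a2 lie in this order on chromosome 10, with 302 kb between Ptbp1 and Cirbp and 626 kb between Cirbp and Sf3a2, and their shared positions are 3 separate peaks. Srsf10 and Hnrnpr, both with a Pygo2 peak at the start, lie 441 kb apart on chromosome 4.

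Other splicing genes with a shared peak within 50 kb were Bud31, Lsm4, Dhx16 and Sf1 of the core spliceosome, the SR protein kinase gene Clk2, and Casc3 of the exon junction complex. At Bud31 the β-catenin peak (chromosome 5, 145140059 to 145140227) lay 0.233 kb from an end of the gene, though nearer to Pdap1. The others lay 20.1 kb to 37.2 kb away and were nearer to other genes, that of Lsm4 to Jund and that of Sf1 to Men1.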
